A study of Homo sapiens with 8 samples.

Results

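Collagen chain genes and the genes of the enzymes and chaperone that modify, fold and cross-link collagen were examined in UM-RC-2, an established line of clear cell renal cell carcinoma whose VHL gene carries the change p.Arg82Pro per the labels. Members were taken by symbol: every gene named COL, a number, A and a number, which gave 44 chains, and 15 named enzyme and chaperone genes, 59 of the 43682 symbols counted. All cells were infected with lentivirus and selected in blasticidin at 10 µg/ml in medium with 10% serum. They stably expressed either VHL (2 RNA libraries) or a construct that the labels name VEC (2 RNA libraries). The libraries carry the replicate numbers 1 and 2, and the VEC and VHL libraries of a number are called a pair here. The labels do not state the promoter of the construct, or whether a culture is a clone or a pool. They also do not state whether the replicates are separate cultures. The p-values thus rest on the spread between these libraries, which may be technical.

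Collagen chains carry a long repeat of triplets that begin with glycine and wind into a triple helix in the endoplasmic reticulum. Before the helix forms, prolyl 4-hydroxylases make the hydroxyproline that stabilises it, and lysyl hydroxylases (PLOD) and galactosyltransferases (COLGALT) modify lysines. The chaperone HSP47 (SERPINH1) binds the folded molecule. Outside the cell, lysyl oxidases (LOX family) oxidise lysines so that neighbouring molecules cross-link. VHL is the recognition subunit of a ubiquitin ligase that destroys the alpha subunits of hypoxia-inducible factors (HIF), and P4HA1, P4HA2, PLOD2 and LOX are known HIF target genes. In the kidney, type IV collagen forms the network of the basement membranes, with the chains of COL4A3, COL4A4 and COL4A5 in that of the glomerulus.

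Libraries held between 16230291 and 50027348 counts. The replicate numbers set the libraries apart far more than the groups did: across 21673 genes, log2(CPM + 1) correlated at 0.991 and 0.978 within pairs and at 0.502 and 0.531 between libraries of a group, so every result is given in each pair. The VHL transcript, in CPM (counts scaled to a common library total of 1e+06), stood at 37.1 in VEC and 146 in VHL cells of replicate 1, and at 88.9 and 151 in replicate 2. The counts do not separate the introduced transcript from the cells' own. CA9, a carbonic anhydrase and classic HIF target, went from 67.5 to 1.55 CPM and from 61.8 to 1.40 CPM. In the fit with the replicate number as a term beside group, the log2 changes were 1.36 ± 0.23 for VHL (± SE, edgeR adjusted p = 4.63e-07) and -5.45 ± 0.29 for CA9 (edgeR adjusted p = 2.04e-76). Of 8 renal carcinoma markers, 7 had at least 20 counts in every library, NNMT being the exception, and their summed level was 1627 and 1113 CPM in VEC and VHL of replicate 1 and 1153 and 730 CPM in replicate 2. Of 5 endothelial markers, 4 had 0 counts in every library, and the 6 fibroblast and pericyte markers summed to between 1.17 and 4.56 CPM. The 5 leukocyte markers summed to 17.7 and 11.8 CPM in replicate 1 but to 87.5 and 82.4 CPM in replicate 2. Of these, LYZ had 1989 and 1793 counts in replicate 2 against 0 and 1 in replicate 1. CD68 stood at 17.6 and 11.6 CPM in replicate 1 and at 42.2 and 36.8 CPM in replicate 2. What part these marker differences between replicates had in the results was not tested.

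Enzymes that hydroxylate proline (P4HA1, P4HA2) and lysine (PLOD1, PLOD2) and that cross-link collagen (LOX, LOXL2) were lower in VHL cells in both pairs, as were the chains COL4A3, COL4A4 and COL12A1. In the fit with group as its only term, which carries the difference between replicates as error (2 residual degrees of freedom), 0 of the 33 tested members passed (0% of all 24417 tested genes). Their adjusted p was 0.999991 (edgeR), and 0 had an unadjusted p under 0.05. A gene is called here when its Benjamini-Hochberg adjusted p is under 0.05 in edgeR's quasi-likelihood test with the replicate number as a term beside group (the paired fit, 1 residual degree of freedom), and rose and fell are used of such calls. The error of the paired fit is drawn largely from all genes together. Its SE and p-value therefore do not measure how well the pairs of a single gene agree. P4HA2 changed by -1.74 and -0.85 (log2) in the pairs with an SE of 0.24. COL4A3 changed by -1.71 in each pair with an SE of 0.30. Of the 59 members, 33 had enough counts to be tested, 12 enzymes and 21 chains. Calls numbered 9, all lower in VHL, against 2.35% of all tested genes called lower and 0.749% called higher. They were 6 enzymes (P4HA1, P4HA2, PLOD1, PLOD2, LOX and LOXL2) and 3 chains (COL4A3, COL4A4 and COL12A1). Members enter the test only with enough counts in some libraries, so these shares describe the genes that passed that filter. With group alone the changes were alike in size but their errors were larger: -1.85 ± 0.78 for LOXL2, -1.70 ± 0.90 for P4HA1 and -1.72 ± 1.02 for COL4A3 (log2, ± SE). In that fit single libraries moved these values: P4HA1 was at -0.63 and P4HA2 at -0.20 without VEC of replicate 1, and LOX was at -0.38 without VEC of replicate 2. DESeq2's Wald test with group alone also called 0 members, and 6 of all tested genes (0.0246%). In bulk RNA, fewer cells that express a gene and less RNA per cell cannot be told apart.

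A count that needs no model was made from the same 4 libraries as the calls, so it is not separate support for them. It was added after the data were seen. The log2 change was -1 or lower in both pairs for 7 of the 33 tested members, against 1.31% of all tested genes, and 1 or higher in both for 0 members, against 0.434%. The 7 were the called members without P4HA2, which missed it in the second pair, and COL12A1, which missed it narrowly in the first. Both VHL libraries lay below both VEC libraries for 10 tested members, against 3.39% of all tested genes, among them 7 of the 9 called. The others, COL19A1, COL27A1 and COLGALT1, were not called. Of the called members, LOX and P4HA2 were the exceptions, because their levels differed more between replicates than between groups.

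**Figure D1:**
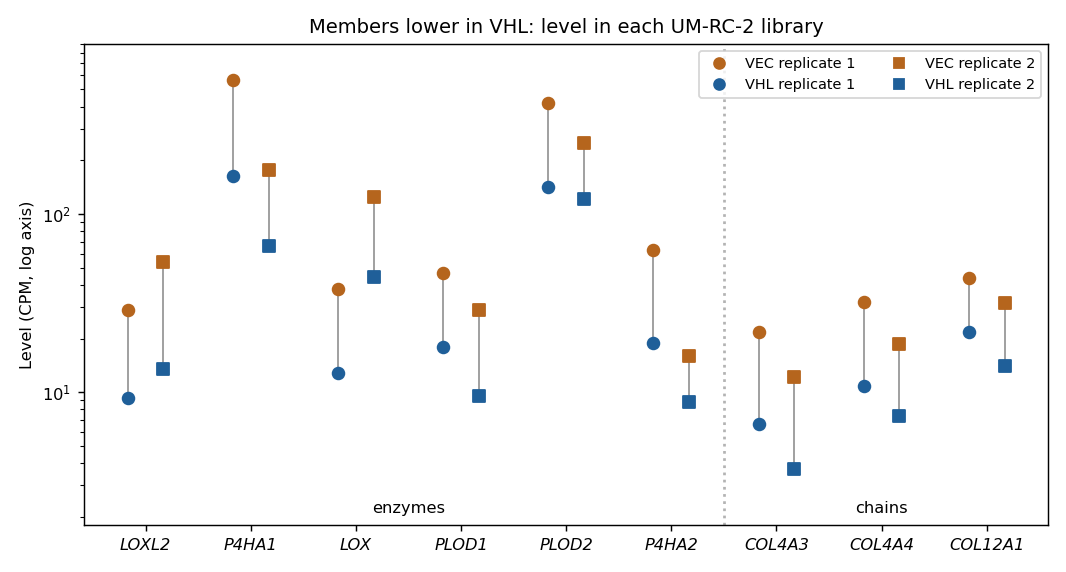
Level of the 9 called members in CPM (log axis) in each of the 4 libraries, with circles for replicate 1, squares for replicate 2, and a grey line joining VEC (orange) and VHL (blue) of a pair. VHL lies below VEC in both pairs for each of the 9 genes, while the height of a pair differs between replicates, most for P4HA2 and LOX.

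Prolyl 4-hydroxylase is built from catalytic alpha subunits, encoded by P4HA1, P4HA2 and P4HA3, and a beta subunit that is also protein disulphide isomerase, encoded by P4HB. P4HA1 stood at 565 CPM in VEC against 163 CPM with VHL in replicate 1, and at 177 against 66.4 CPM in replicate 2. VHL libraries thus held 28.8% and 37.5% of the VEC level of their pair, and the groups did not overlap. The paired fit gave a log2 change of -1.61 ± 0.24 (SE, n = 2 per group, edgeR adjusted p = 1.77e-08). P4HA2 was measured at 63.2 and 18.9 CPM in replicate 1 and at 15.9 and 8.84 CPM in replicate 2. Its fall was deeper in the first pair, where VHL held 29.9% of the VEC level, than in the second, where it held 55.4%, and the VEC library of replicate 2 lay below the VHL library of replicate 1. Its paired log2 change was -1.30 ± 0.24 (SE, n = 2 per group, edgeR adjusted p = 8.59e-06). P4HA3 was hardly detected, with at most 3 counts in a library.

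P4HB, which serves many other proteins as well, was lower in VHL in both pairs without reaching the threshold. It was measured at 519 and 317 CPM in replicate 1 and at 222 and 124 CPM in replicate 2, or 61.2% and 56.1% of the VEC level. The paired fit gave -0.77 ± 0.24 (SE, n = 2 per group, edgeR adjusted p = 0.0517). Its adjusted p ranged from 9.05e-08 to 0.0761 over the 6 paired fits that were run with edgeR or DESeq2, 4 of which called it.

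Lysyl hydroxylases split by gene. PLOD2, which hydroxylates lysines of the telopeptides where cross-links form, was measured at 422 and 142 CPM in replicate 1 and at 250 and 122 CPM in replicate 2. Its level in VHL was 33.5% of that in VEC in the first pair and 48.8% in the second, with no overlap of the groups. Its paired log2 change was -1.31 ± 0.24 (SE, n = 2 per group, edgeR adjusted p = 1.26e-05). PLOD1, which acts on lysines of the helix, went from 46.4 to 18.0 CPM and from 28.9 to 9.57 CPM. VHL held 38.7% and 33.1% of the VEC level. The groups did not overlap, with a paired change of -1.48 ± 0.24 (SE, n = 2 per group, edgeR adjusted p = 1.24e-07). PLOD3, which has lysyl hydroxylase and glycosyltransferase activity, was measured at 11.6 and 13.0 CPM in replicate 1 and at 10.0 and 7.17 CPM in replicate 2. It was slightly higher in VHL in one pair and lower in the other, and its paired log2 change of -0.16 ± 0.29 did not pass (SE, n = 2 per group, edgeR adjusted p = 0.953).

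Glycosylation and chaperone genes were not called. COLGALT1, which adds galactose to hydroxylysine, was measured at 68.5 and 63.6 CPM in replicate 1 and at 85.4 and 66.9 CPM in replicate 2 (paired log2 change -0.23 ± 0.21, edgeR adjusted p = 0.800). Its VHL levels lay below both VEC levels by a small margin. COLGALT2, chosen after its values were seen, went from 3 to 16 counts and from 14 to 25. It had the largest positive fitted change of a tested member at 1.62 ± 0.76 on the log2 scale and was not called (edgeR adjusted p = 0.327). SERPINH1 was measured at 33.6 and 43.3 CPM in replicate 1 and at 19.1 and 20.4 CPM in replicate 2. It was the only gene of the enzyme and chaperone group with at least 20 counts in every library that was higher in VHL in both pairs, with a paired change of 0.23 ± 0.23 that did not pass (edgeR adjusted p = 0.829). Its pseudogene SERPINH1P1 had 7 and 10 counts in replicate 1 and 126 and 127 in replicate 2, and reads shared between them could be counted under either name.

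Lysyl oxidase genes held the member with the most negative change among those called, LOXL2. LOXL2 stood at 28.9 CPM in VEC against 9.22 CPM with VHL in replicate 1, and at 53.5 against 13.6 CPM in replicate 2. VHL libraries held 31.9% and 25.4% of the VEC level, with no overlap. The paired fit gave -1.82 ± 0.24 (SE, n = 2 per group, edgeR adjusted p = 1.96e-11). By its p-value in that fit, LOXL2 was at rank 42 of the tested genes. LOX itself was measured at 38.1 and 12.8 CPM in replicate 1 and at 124 and 44.1 CPM in replicate 2. Its level in VHL was 33.6% and 35.4% of that in VEC, nearly the same share in both pairs, although the VHL library of replicate 2 exceeded the VEC library of replicate 1. Its paired log2 change was -1.53 ± 0.22 (SE, n = 2 per group, edgeR adjusted p = 1.18e-09). SRFBP1, a gene whose annotation overlaps that of LOX, had 1284 and 1187 counts in replicate 1 and 2243 and 2421 in replicate 2, with log2 changes of 0.20 and 0.27. LOXL4 had 29 and 18 counts in replicate 1 and 4 and 8 in replicate 2 and was not called, and LOXL1 and LOXL3 had at most 9 counts in a library.

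LOX and LOXL2 also differed from the other called enzymes in their level between replicates. The VEC level in replicate 2 was 3.27 times that in replicate 1 for LOX and 1.85 times for LOXL2. It was 0.314 times for P4HA1, 0.252 for P4HA2, 0.591 for PLOD2 and 0.623 for PLOD1. The libraries of a pair shared these enzyme levels. Protein-coding genes held 96.1% (VEC) and 95.6% (VHL) of counts in replicate 1, and 65.7% and 71.9% in replicate 2. What part this composition, or the preparation or processing of the replicates, had in the enzyme levels was not tested.

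Promoters of 3 called enzymes that are known HIF targets are shown, because HIF binds a short core motif, and they were chosen with their matches known. The bases are the 250 before the RefSeq start of each gene, written along the gene's strand on GRCh38.p14, while the counts were made on hg19. Capitals mark matches to ACGTG or GCGTG on either strand, which read CACGT or CACGC when the match is on the opposite strand.
P4HA1: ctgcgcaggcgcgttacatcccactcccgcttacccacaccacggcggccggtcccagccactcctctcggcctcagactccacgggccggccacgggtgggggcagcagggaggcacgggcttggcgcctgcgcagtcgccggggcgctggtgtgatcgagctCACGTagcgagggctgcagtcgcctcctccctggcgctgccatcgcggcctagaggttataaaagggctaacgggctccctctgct
PLOD2: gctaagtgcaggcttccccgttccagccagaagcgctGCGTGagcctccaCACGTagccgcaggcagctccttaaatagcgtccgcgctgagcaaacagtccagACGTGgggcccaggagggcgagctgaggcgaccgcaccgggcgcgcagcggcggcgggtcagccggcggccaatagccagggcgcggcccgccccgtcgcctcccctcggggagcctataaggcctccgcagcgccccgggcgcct
LOX: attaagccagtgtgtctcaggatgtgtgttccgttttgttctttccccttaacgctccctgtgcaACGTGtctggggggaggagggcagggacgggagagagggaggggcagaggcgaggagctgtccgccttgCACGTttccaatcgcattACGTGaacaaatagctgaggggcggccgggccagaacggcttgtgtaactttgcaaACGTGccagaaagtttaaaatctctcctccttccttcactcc
These lie at chr10:73096867-73097116 (P4HA1), chr3:146161185-146161434 (PLOD2) and chr5:122078260-122078509 (LOX), each on the minus strand. P4HA1 has 1 match, whose first base is 86 bases before the start. PLOD2 has 3, at 213, 200 and 146 bases, and LOX has 4, at 185, 116, 98 and 42 bases. RefSeq lists 3 start windows for LOX, and the one shown is the first listed and has the most matches. PLOD1 and COL12A1, also called, have 2 matches each in these 250 bases, P4HA2 has none and LOXL2 was not matched to the table. Over the window of 300 bases that ends 50 bases after the start, at least 1 match was present for 52.4% of the 27305 genes in the table, for 8 of the 12 matched enzymes and for 17 of the 32 matched chains. The motif is thus common in such windows, and the shares of enzymes (66.7%, exact 95% interval 34.9% to 90.1%) and chains (53.1%, 34.7% to 70.9%) both include the share of all genes. A match is a description of letters and not evidence of binding.

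Many chains were not detected, or nearly not, among them the chains of types I, II and III. Counts were 0 in all 4 libraries for 13 chains: COL1A2, COL2A1, COL3A1, COL4A5, COL5A1, COL5A3, COL6A3, COL6A5, COL11A1, COL13A1, COL21A1, COL22A1 and COL25A1. COL1A1, the main chain of type I collagen, had 1 count in the VHL library of replicate 2 and 0 in the others. A count of 0 allows up to 3 counts, or between 0.0658 and 0.161 CPM depending on the library, with counting error alone considered. In all, 26 of the 44 chains had at most 20 counts in every library, and 11 had at least 20 in every library.

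**Figure D2:**
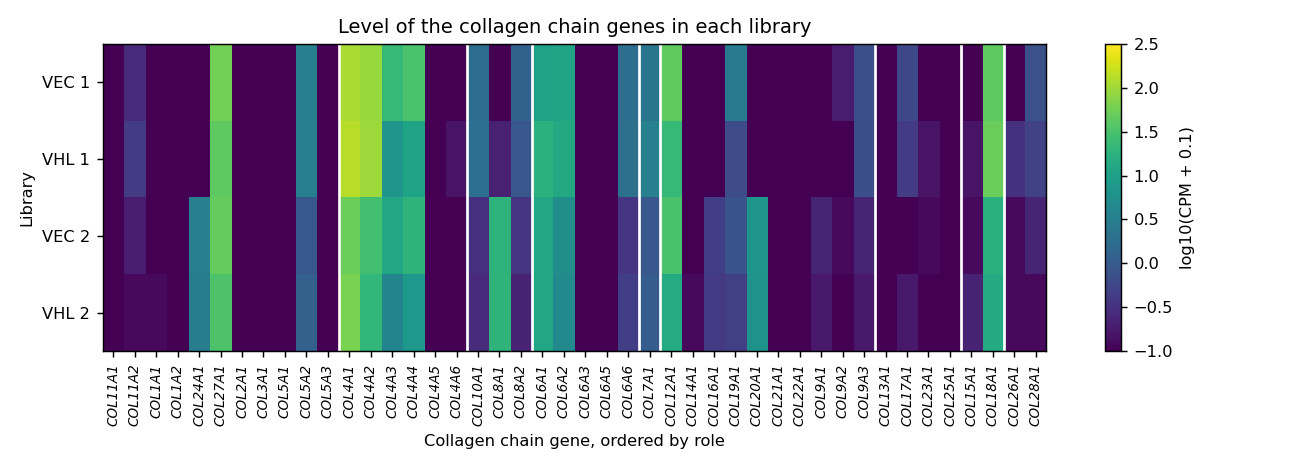
Level of the 44 collagen chain genes (columns, ordered by role, white lines between roles) in each of the 4 libraries (rows), coloured by log10(CPM + 0.1). Most columns are dark in every row, COL4A1 and COL4A2 are bright in every row, and COL8A1, COL20A1 and COL24A1 are bright in the replicate 2 libraries alone.

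Type IV collagen, the network former of basement membranes, divided into a pair of genes that fell and a pair that did not pass the test. COL4A3 was measured at 21.7 and 6.59 CPM in replicate 1 and at 12.2 and 3.70 CPM in replicate 2. VHL libraries held 30.4% and 30.3% of the VEC level of their pair, and the groups did not overlap. The paired fit gave -1.72 ± 0.30 (SE, n = 2 per group, edgeR adjusted p = 1.54e-06). COL4A4 was measured at 32.2 and 10.8 CPM in replicate 1 and at 18.7 and 7.32 CPM in replicate 2, or 33.5% and 39.2% of the VEC level. Its groups did not overlap, and the paired fit gave -1.46 ± 0.26 (SE, n = 2 per group, edgeR adjusted p = 5.08e-06). Their partner COL4A5 had 0 counts throughout, as did COL4A6 but for 1 count in the VHL library of replicate 1.

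COL4A1 and COL4A2, the chains of most basement membranes, were not called. COL4A1 was measured at 113 and 133 CPM in replicate 1 and at 52.0 and 62.9 CPM in replicate 2 (paired log2 change 0.25 ± 0.22, edgeR adjusted p = 0.775). It was a little higher in VHL in both pairs. COL4A2 was measured at 90.1 and 97.1 CPM in replicate 1 and at 27.8 and 20.9 CPM in replicate 2 (paired log2 change -0.15 ± 0.21, edgeR adjusted p = 0.927). It was higher in VHL in the first pair and lower in the second.

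Both pairs of type IV genes are arranged head to head and are transcribed in opposite directions, as is known for this family. On GRCh38.p14 the RefSeq starts of COL4A3 and COL4A4 have 418 bases between them on chromosome 2, and those of COL4A1 and COL4A2 have 126 on chromosome 13. The first sequence gives the 250 bases before COL4A3 (chr2:227164374-227164623, plus strand), and the second the stretch between the starts of COL4A1 and COL4A2 (chr13:110307158-110307283, plus strand). They are shown to set the pair that fell beside the pair that was not called, with the same motif in capitals.
COL4A3: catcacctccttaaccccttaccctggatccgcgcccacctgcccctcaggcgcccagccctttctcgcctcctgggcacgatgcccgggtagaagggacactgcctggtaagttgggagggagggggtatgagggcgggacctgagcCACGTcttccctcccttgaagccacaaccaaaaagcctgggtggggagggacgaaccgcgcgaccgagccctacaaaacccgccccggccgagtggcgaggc
COL4A1-COL4A2: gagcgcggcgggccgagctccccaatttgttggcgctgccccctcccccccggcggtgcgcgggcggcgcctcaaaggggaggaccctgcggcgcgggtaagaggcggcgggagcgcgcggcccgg
COL4A3 has 1 match, 102 bases before its start, the 250 bases before COL4A4 have none, and the stretch between COL4A1 and COL4A2 has 0. The full 250 bases before COL4A2 hold 1, at 220 bases, which lies inside the transcribed side of COL4A1. These letters say nothing about binding outside the windows. RHBDD1, whose annotation overlaps that of COL4A4, had 367 and 301 counts in replicate 1 and 550 and 642 in replicate 2, with log2 changes of 0.03 and 0.38. MFF-DT, which overlaps COL4A3, had 86 and 46 counts and 379 and 316 counts, with changes of -0.58 and -0.10. Neither overlapping gene was called. Whether the counting used strand is not stated, so reads of overlapping genes cannot be told apart.

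Fibril-associated collagens sit on the surface of fibrils, and COL12A1, which encodes the type XII chain, was the called member of this role. It was measured at 43.6 and 21.8 CPM in replicate 1 and at 31.5 and 14.1 CPM in replicate 2. VHL libraries held 50.1% and 44.7% of the VEC level, with no overlap, and the paired fit gave -1.08 ± 0.23 (SE, n = 2 per group, edgeR adjusted p = 0.000309). COL19A1, chosen after its values were seen, went from 59 to 10 counts and from 33 to 15 counts. Its paired change was -1.59 ± 0.63 and was not called (edgeR adjusted p = 0.178). COL20A1 and COL9A3 were tested and not called, and the other 6 genes of the role did not pass the filter.

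Fibrillar chains were represented mainly by COL27A1, whose product forms thin fibrils in cartilage and other tissues. It was measured at 56.4 and 42.9 CPM in replicate 1 and at 46.9 and 33.5 CPM in replicate 2. Its level in VHL was 76.0% and 71.5% of that in VEC, alike in both pairs, but the paired change of -0.44 ± 0.21 did not pass (edgeR adjusted p = 0.350). COL5A2 had between 37 and 76 counts and COL24A1 had 0 counts in both replicate 1 libraries, and neither was called.

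The remaining roles held no call. COL18A1, a basement membrane proteoglycan core whose C-terminal fragment is endostatin, was measured at 43.1 and 49.3 CPM in replicate 1 and at 16.4 and 13.7 CPM in replicate 2 (paired log2 change -0.03 ± 0.22, edgeR adjusted p = 0.994). COL6A1, a chain of the beaded filaments of type VI, was measured at 10.4 and 17.2 CPM and at 12.4 and 11.9 CPM (paired log2 change 0.32 ± 0.28, edgeR adjusted p = 0.770). It was higher in VHL in the first pair and nearly level in the second. COL7A1, the anchoring fibril chain, had 50 and 61 counts in replicate 1 and 36 and 38 in replicate 2. COL17A1, a transmembrane chain of hemidesmosomes, had 11 and 6 counts in replicate 1 and 0 and 3 in replicate 2, and COL28A1 had 15 and 7 and then 6 and 1. COL8A1, a short-chain network collagen, had 0 and 2 counts in replicate 1 and 835 and 769 in replicate 2, where VHL held 103% of the VEC level. These genes did not pass the test, and the low counts of COL7A1, COL17A1 and COL28A1 leave wide errors, with SE of 0.50, 1.00 and 0.93 on the log2 scale.

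**Figure D3:**
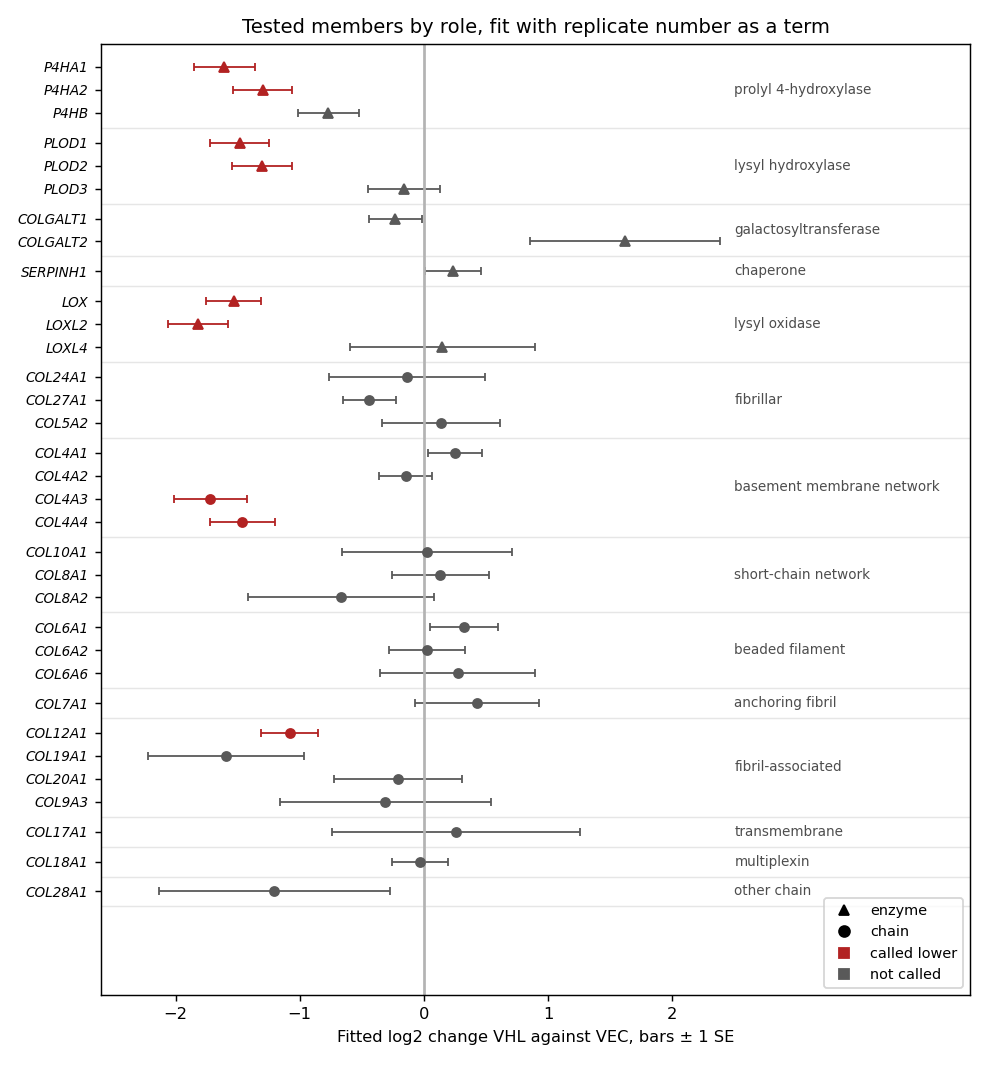
Fitted log2 change, VHL against VEC, with bars of ± 1 SE, for the 33 tested members grouped by role (triangles for enzymes and chaperone, circles for chains, red for the 9 called lower). Red points are found among prolyl 4-hydroxylases, lysyl hydroxylases, lysyl oxidases, the basement membrane network and fibril-associated chains, and every red point lies at -1.08 or lower.

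Chains and enzymes were set side by side as a description, with no test of the difference between them. Among tested genes, 6 of 12 enzymes and 3 of 21 chains were called lower, against 2.35% of all tested genes. The median log2 change of the tested enzymes was -1.04 in the first pair and -0.84 in the second, and that of the tested chains was 0 and -0.22. Over all tested genes the medians were 0 and -0.01. Of the tested enzymes 8 were lower in both pairs and 2 were higher in both, and of the tested chains 8 were lower and 4 higher in both. Of all 24417 tested genes, 6097 were lower and 5558 higher in both. Summed over all 15 genes, the enzymes took 1799 CPM in VEC against 803 CPM with VHL in replicate 1, and 987 against 484 CPM in replicate 2. The sum in VHL was thus 44.6% and 49.1% of that in VEC. For all 44 chains the sums were 436 and 405 CPM in replicate 1 and 256 and 204 CPM in replicate 2. The chain sum in VHL was 92.8% and 79.9% of that in VEC, beside 94.0% and 114% for all protein-coding genes. P4HA1, P4HB and PLOD2 made up most of the enzyme sum. Within the chain sum, the most counts per library total came from COL4A1 and COL4A2 in replicate 1 and from COL4A1 and COL27A1 in replicate 2.

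**Figure D4:**
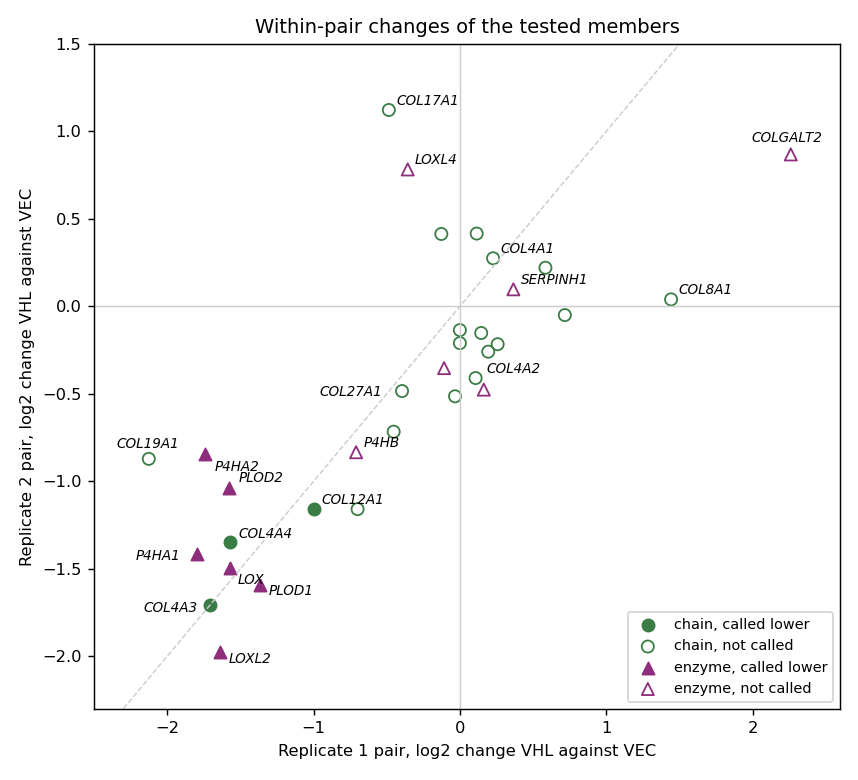
Within-pair log2 change, VHL against VEC, of the 33 tested members in the replicate 1 pair (horizontal axis) and the replicate 2 pair (vertical axis), with triangles for enzymes, circles for chains, filled where called lower, and a dashed line of equal change. The 9 filled points lie in the lower left corner, while most open circles lie within 1 log2 unit of 0 on both axes.

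Other genes of collagen synthesis and use, from lists drawn up apart from these values but with earlier results of the data known, held no call. Of 42 such genes found among the symbols, 27 were tested and 0 were called in the paired fit, against 3.1% of all tested genes in either direction. With so small a share, a list of 27 genes can hold 0 calls without differing from all tested genes. For synthesis and export, 12 of 14 were tested. Examples chosen after their values were seen follow. P3H1 and CRTAP, which form the prolyl 3-hydroxylase complex with cyclophilin B, had paired log2 changes of -0.22 ± 0.24 and -0.00 ± 0.24 (edgeR adjusted p = 0.868 and 1.00). Cyclophilin B itself, encoded by PPIB, had a change of -0.08 ± 0.21 (edgeR adjusted p = 0.980). Across the lists, the largest positive changes were 1.16 ± 0.69 for TLL2 and 0.88 ± 0.52 for P3H3, and neither was called. Their counts were low, at most 63 and 61 in a library. Other positive changes that were not called included 0.51 ± 0.24 for DDR2 and 0.47 ± 0.21 for ADAMTS3. Larger falls not called included -0.66 ± 0.39 for BMP1 and -0.45 ± 0.29 for P3H2. Of the 27 tested, 5 were lower and 8 were higher in both pairs. For propeptide processing 6 of 8 were tested, for receptors and fibril partners 7 of 12, and for collagenases 2 of 8. The summed level of all 42 in VHL was 104% of that in VEC in the first pair and 122% in the second. For the enzymes these shares were 44.6% and 49.1%, and for all protein-coding genes 94.0% and 114%.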

How the data were processed

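RNA from 4 UM-RC-2 libraries, 2 VEC and 2 VHL, was analysed; groups and replicate numbers come from the titles, which also contain the word ChIP-seq, while the values are counts per gene and were treated as RNA. The authors deposited raw counts per gene symbol from sorted hg19 alignments, per the file headers. The submitters' processing notes name featureCounts and HOMER with no role; aligner, annotation, strand and handling of reads with several positions are not given in the sources used here. The H3K27ac tables were not used here, since their regions have no positions.

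Genes passing filterByExpr (24417) were fitted in R 4.3.3 with edgeR 4.0.16 (TMM, glmQLFit, glmQLFTest, two-sided, Benjamini-Hochberg over all of them), with group alone and with the replicate number as a term (1 residual degree of freedom). SE was taken as the size of the log2 change over the root of its F statistic. CPM used TMM-scaled library sizes, except in the correlations, which used unscaled library totals. Within-pair changes had 2 as prior count. The alternatives were DESeq2 1.42.0 (size factors, Wald test), no filter, a stricter filter, protein-coding genes alone and leaving out each library. Gene classes, overlaps and promoters came from RefSeq tables of GRCh38.p14, where 44 of the 59 members had a promoter. Levels per length and protein features were not analysed here.

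Members and lists were chosen with earlier results of these data known. Genes named by rule were the called members, the 10 most abundant uncalled ones, the most abundant of each role left, and related genes if called. Others are marked as chosen after their values were seen, except zero-count chains, members given by counts alone and genes overlapping a member.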

Additional observations from a re-analysis of the deposited data

How the results depend on the processing

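The labels do not say that a replicate number marks a shared culture or batch, but same-numbered libraries deviated together from their group means (r = 0.983 across genes), and the forms of the alignment names differ between numbers. The replicate block decided the calls: group alone called 0 members in edgeR (0 of all genes) and in DESeq2 (6 of all genes, 0.0246%), and the replicate block called 9 members (3 chains, 6 enzymes). With the replicate block the calls were 10 (3 and 7) with DESeq2 size factors, 9 (3 and 6) with no filter, 10 (3 and 7) with the stricter filter of 20 counts in every library, 11 (4 and 7) in DESeq2's Wald test and 11 (4 and 7) among protein-coding genes alone. Over all genes, calls numbered 756 with the replicate block, or 3.1% of the genes with an adjusted p. In those 5 alternatives, in that order, they numbered 999 (4.09%), 640 (1.95%), 1181 (9.73%), 1203 (8.59%) and 993 (7.15%). The share of all genes called thus differed between fits along with the member calls. The 9 genes were called in all 6 of these fits. P4HB was added in 4, COL27A1 in DESeq2 (adjusted p = 0.0275) and COL19A1 among protein-coding genes (edgeR adjusted p = 0.0482). A block with 1 library left out has no residual degrees of freedom and was not fitted. Without each library in turn, group alone called 0 members, with a lone library assumed to vary like the others. The changes of the 9 genes stayed negative there but moved widely, from -2.48 to -0.63 for P4HA1, -2.16 to -0.20 for P4HA2, -2.75 to -0.38 for LOX, -2.23 to -1.30 for LOXL2, -1.98 to -1.07 for PLOD1, -1.64 to -0.92 for PLOD2, -2.19 to -1.25 for COL4A3, -1.79 to -1.05 for COL4A4 and -1.41 to -0.81 for COL12A1.

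The median log2 change of enzymes with group alone (-1.05) was -0.77 with no filter (-0.78 with the block), -1.38 with the stricter filter (-1.31 with the block), -0.84 in the second pair, and -1.52 to -0.30 when 1 library was left out. These filters change which genes are counted. That of chains (-0.14) turned to 0.0576 with the stricter filter and ranged from -1.11 to 0.48 with 1 library left out.

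Among the members named by rule, direction changed for 8 that were not called in any of these fits. Other uncalled members changed sign as well. LOXL4 (-0.21 with group alone, 0.15 with the block), COL6A2 and COL10A1 did so between fits and also with 1 library left out. COL5A2, COL6A6, COL8A2, COL9A3, COL20A1 and COL24A1 did so with 1 library left out. COL4A2 (0.00 with group alone) was -0.0114 with DESeq2 size factors, -0.0115 in DESeq2, -0.0255 with no filter, -0.00339 with the stricter filter and -0.0222 among protein-coding genes. With the block it was -0.15, and -0.18, -0.16, -0.15, -0.18 and -0.17 with size factors, no filter, the stricter filter, DESeq2 and protein-coding genes. COL18A1 (0.08) was -0.0303 with the block, and -0.0646, -0.0436, -0.0341, -0.0662 and -0.0561 in that order. COL17A1 (-0.26) was 0.26 with the block, and 0.26, 0.40, 1.33 and 0.20 with size factors, no filter, DESeq2 and protein-coding genes. COL8A1 (0.05) was -0.0481 with size factors, -0.0482 in DESeq2 and -0.0451 among protein-coding genes. With 1 library left out, changes ranged from -0.39 to 0.91 for COL4A1, -1.49 to 1.08 for COL4A2, -1.11 to 0.94 for COL18A1, -0.37 to 0.74 for SERPINH1, -0.59 to 0.23 for PLOD3, -6.47 to 11.05 for COL8A1, -0.66 to 1.41 for COL7A1 and -1.23 to 0.48 for COL17A1. The cause was not tested.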

Other observations

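Several chains had counts in the libraries of 1 replicate number alone, in VEC and VHL alike. COL8A1 had 835 (VEC) and 769 (VHL) counts in replicate 2 against 0 and 2 in replicate 1. COL20A1 had 322 and 249 against 0 and 0, and COL24A1 had 145 and 118 against 0 and 0. The antisense gene LOXL1-AS1 had 297 and 231 counts in replicate 2 against 0 and 0, and P4HA3-AS1 had 977 and 912 against 0 and 0, while LOXL1 and P4HA3 themselves had at most 5 counts in any library. In the second pair, COL8A1, COL20A1 and COL24A1 in VHL stood at 103%, 86.3% and 90.9% of VEC.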
